A study of Mus musculus with 18 samples.

Results

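Brevican (Bcan), neurocan (Ncan), the link protein Hapln1, tenascin-R (Tnr), tenascin-C (Tnc), the receptor phosphatase Ptprz1 and the proteoglycan Cspg5 are the neural extracellular matrix genes described here. They are 7 of the 23284 genes in the deposited tables and were found by their symbols. They were selected on their group means and on their responses to cyclophosphamide (CPA) in these same libraries, so for these 7 genes all levels, fold changes and calls are descriptions and carry no p-value. The study grew mouse tumor cell lines under the skin of mice and asked how metronomic CPA, given at a fixed interval below the maximum tolerated dose, changes the RNA of whole tumors. Poly-A RNA of each group was sequenced as 2 pools of tumors, which gave 18 libraries in 9 groups.

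GL261 is a mouse glioma line, LLC is Lewis lung carcinoma and B16F10 is a melanoma line. All 3 were grown in 12-week-old male C57BL/6 mice (strain given as C57BL/BNTac from Taconic), named B6 here, which have an intact immune system. The CPA/6d groups received 140 mg/kg every 6 days, and tumors were taken 6 days after the last injection. The GL261(B6) CPA/6d pools held 9 and 10 tumors, as did the untreated GL261(B6) pools. The LLC CPA/6d pools and the untreated LLC pools held 5 tumors each. The B16F10 CPA/6d pools held 4 and 3 tumors, and the untreated B16F10 pools 5 each. GL261 was also grown in 12-week-old male ICR scid mice, which lack mature T and B cells and keep NK cells and macrophages. There a CPA/9d group received 140 mg/kg every 9 days, and its tumors were also taken 6 days after the last injection. The CPA/9d pools held 12 tumors each, the CPA/6d pools 9 each and the untreated pools 6 each. LLC and B16F10 tumors received 3 injections and GL261 tumors 2 in either host, and the effect of this count cannot be told apart from that of the tumor line. The B6 libraries are labelled strand-specific and the scid libraries are not, so levels are given for each host on its own and between hosts only responses were compared.

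The matrix between brain cells holds little fibrillar collagen and is built instead on hyaluronan, a long sugar chain. Lecticans such as brevican and neurocan, which carry chondroitin sulfate, bind hyaluronan at one end and tenascins at the other, and link proteins such as Hapln1 lock the lectican onto the chain. Ptprz1 spans the membrane of glial cells and binds pleiotrophin, contactin 1 and tenascins, and a secreted splice form of it, phosphacan, lies in the matrix. Cspg5, or neuroglycan C, is a membrane proteoglycan with an EGF-like domain. Brevican, Ptprz1 and Tnr are typical of the oligodendrocyte lineage and of gliomas, whereas Tnc is also made by stromal cells in wounds and many tumors and Hapln1 by chondrocytes.

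The 7 genes lie on 7 chromosomes in the mm9 build (GENCODE vM1 models). Bcan spans chr3:87791453-87804278, Ncan chr8:72616984-72644772 and Tnc chr4:63620819-63681760, all on the minus strand. Tnr spans chr1:161667641-161855053, Hapln1 chr13:89680241-89751437, Ptprz1 chr6:22825502-23002916 and Cspg5 chr9:110146287-110165079, all on the plus strand. The joined exons measure 3267 bases in Bcan, 7195 in Ncan, 5055 in Hapln1, 4949 in Tnr, 7509 in Tnc, 8068 in Ptprz1 and 3870 in Cspg5. Exons of Tnc overlap a lincRNA gene on the opposite strand, 8030451A03Rik, whose reads an unstranded library would not keep apart from Tnc.

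The 250 bases before the start of RefSeq transcripts are shown for the 4 members that fell most in GL261(B6) tumors and for Tnc, which rose. RefSeq (GRCm38.p6) had an entry for 6 of the 7 members, all but Cspg5, and each sequence was placed on mm9 by an exact match. The windows are chr3:87804279-87804528 on the minus strand for Bcan, chr13:89679991-89680240 on the plus strand for Hapln1, chr1:161453650-161453899 on the plus strand for Tnr, chr6:22825252-22825501 on the plus strand for Ptprz1 and chr4:63708050-63708299 on the minus strand for Tnc. None overlapped an exon of the GENCODE models. Where RefSeq gave several starts, the most upstream one was taken. The windows of Tnr and Tnc lie far upstream of the models' first exons, and use of those starts in these tumors was not tested. Capitals mark 2 motifs, each searched on both strands. One is the E-box CANNTG, bound by basic helix-loop-helix factors. The other, named SOX core here, is ACAANG with any base at N, a loose form of the sites of the Sox10 family.
Bcan: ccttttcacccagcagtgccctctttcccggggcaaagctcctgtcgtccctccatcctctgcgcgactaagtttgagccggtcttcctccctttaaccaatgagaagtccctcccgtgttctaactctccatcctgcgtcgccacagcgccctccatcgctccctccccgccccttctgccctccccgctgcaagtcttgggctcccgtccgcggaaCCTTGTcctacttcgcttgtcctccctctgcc
Hapln1: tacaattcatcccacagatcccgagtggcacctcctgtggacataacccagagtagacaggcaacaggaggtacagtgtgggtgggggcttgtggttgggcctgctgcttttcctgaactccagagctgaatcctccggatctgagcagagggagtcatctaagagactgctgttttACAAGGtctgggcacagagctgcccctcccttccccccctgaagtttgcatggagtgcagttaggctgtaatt
Tnr: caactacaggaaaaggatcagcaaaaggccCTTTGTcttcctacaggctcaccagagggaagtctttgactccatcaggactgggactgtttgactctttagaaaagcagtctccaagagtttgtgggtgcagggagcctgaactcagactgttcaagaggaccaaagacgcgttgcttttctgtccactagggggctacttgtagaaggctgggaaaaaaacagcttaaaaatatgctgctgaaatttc
Ptprz1: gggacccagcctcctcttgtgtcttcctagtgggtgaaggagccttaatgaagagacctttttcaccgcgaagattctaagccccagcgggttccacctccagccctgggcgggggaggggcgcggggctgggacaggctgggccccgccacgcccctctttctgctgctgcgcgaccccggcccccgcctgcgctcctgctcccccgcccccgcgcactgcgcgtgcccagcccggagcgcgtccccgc
Tnc: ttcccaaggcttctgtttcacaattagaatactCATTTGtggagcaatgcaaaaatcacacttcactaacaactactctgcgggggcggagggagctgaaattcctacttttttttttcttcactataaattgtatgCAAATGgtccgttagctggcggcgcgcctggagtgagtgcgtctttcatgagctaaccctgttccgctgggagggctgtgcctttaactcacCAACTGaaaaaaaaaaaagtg

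Bcan, Hapln1 and Tnr held 1 SOX core and 0 E-boxes each, Tnc held 3 E-boxes and 0 SOX cores, and Ptprz1 held neither. Ncan, not printed, held 4 E-boxes and 0 SOX cores. Over 32851 mouse promoters, 66.2% held an E-box in the same 250 bases and 36.3% a SOX core, so both motifs are common in windows of this length. The Ptprz1 window was the richest in G and C among these 6, at 71.6%, and that of Tnc the poorest, at 44.8%. These are matches of letters, and no factor's binding was measured.

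Libraries held 6169217 to 15979644 reads over genes. Levels are given as CPM, reads in 1000000 reads of a TMM-scaled library, with the pool of more reads before the pool of fewer reads. The files hold group means, from which the reads of both pools were recovered for 100% of genes, but not which pool is which. The deposited labels could be checked against marker genes. The glial transcription factor gene Olig2 averaged 391 CPM in untreated GL261(B6) tumors, against 0.105 CPM in untreated LLC and 0.0513 CPM in untreated B16F10 tumors. Of 12 neuron markers 3 passed the filter in GL261(B6) tumors, and the neuronal genes Elavl4, Nefl and Nefm had 0 reads in untreated ones, although Mtap2 averaged 222 CPM. The melanocyte gene Dct averaged 2.48 CPM in untreated GL261(B6) tumors and 7141 CPM in untreated B16F10 tumors.

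**Figure D1:**
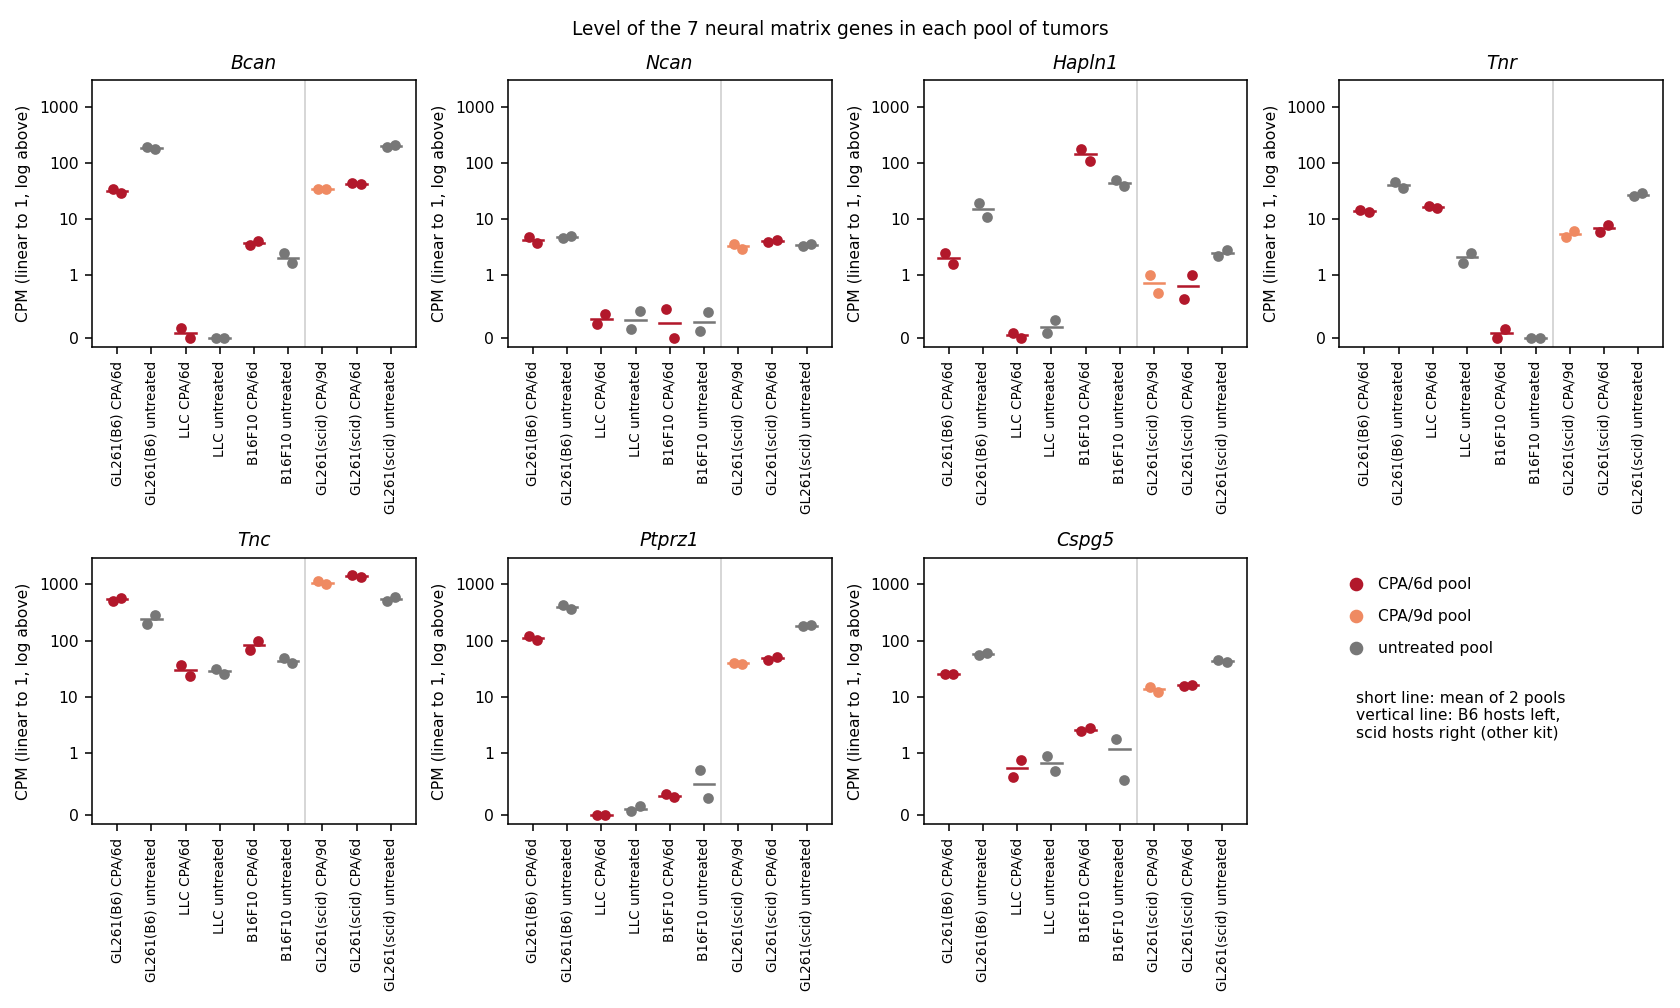
Level of each of the 7 genes in every pool of tumors, in CPM on an axis that is linear up to 1 and logarithmic above. Red points are CPA/6d pools, orange points CPA/9d pools and grey points untreated pools, short lines are means of 2 pools, and the vertical line parts B6 hosts from scid hosts. Bcan, Tnr, Ptprz1 and Cspg5 lie lower in CPA-treated than in untreated GL261 tumors of either host, Tnc lies higher, and Hapln1 is highest in B16F10 tumors.

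Bcan, the lectican of the adult brain and of gliomas, fell in CPA-treated GL261 tumors in both hosts. In GL261(B6) tumors it measured 34.7 and 29.9 CPM after CPA/6d, against 192.3 and 175 CPM untreated. The treated pools lay far below the untreated ones, at 32.3 ± 3.38 CPM and 184 ± 12.1 CPM (SD, n = 2 each), a log2 fold change of -2.51 ± 0.09 (SE). Grown in scid hosts, GL261 tumors held Bcan at 35.2 and 34.7 CPM after CPA/9d, 44.9 and 41.7 CPM after CPA/6d and 195 and 212 CPM untreated. The groups kept apart, with log2 fold changes against untreated tumors of -2.55 ± 0.06 for CPA/9d and -2.25 ± 0.06 for CPA/6d.

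Outside glioma Bcan was scarce. B16F10 tumors held 3.55 and 4.13 CPM after CPA/6d, against 2.46 and 1.67 CPM untreated. These pools did not overlap, but the log2 fold change of 0.83 ± 0.34 did not pass the rule for calls, a fold over 2 with an unadjusted p under 0.001. LLC tumors gave 2 and 0 reads of Bcan after CPA/6d, against 0 and 0 reads untreated. At this depth 3 reads, taken as the floor, correspond to 0.143 CPM over the CPA/6d group and 0.138 CPM over the untreated group, so no fold can be given.

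Ncan, the lectican of the developing brain, was called in none of the GL261 comparisons. It measured 4.79 and 3.75 CPM in GL261(B6) tumors after CPA/6d, against 4.70 and 4.95 CPM untreated. The pools overlapped, and the log2 fold change was -0.18 ± 0.25. The scid-grown tumors held 3.69 and 2.98 CPM after CPA/9d, 3.90 and 4.23 CPM after CPA/6d and 3.38 and 3.57 CPM untreated. The changes against untreated scid tumors were -0.08 ± 0.22 for CPA/9d and 0.20 ± 0.20 for CPA/6d on the log2 scale, neither larger than its SE. LLC pools held 3 and 3 reads after CPA/6d and 2 and 3 reads untreated, and B16F10 pools 4 and 0 reads after CPA/6d and 1 and 3 reads untreated. Those 4 groups overlapped one another, and Ncan did not pass the filter on low reads in either model.

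Hapln1, the link protein that fastens lecticans to hyaluronan, changed in opposite directions in glioma and melanoma. In GL261(B6) tumors it measured 2.54 and 1.62 CPM after CPA/6d, against 19.7 and 10.95 CPM untreated. The pools did not overlap although the untreated ones differed 1.80-fold from each other, and Hapln1 fell by 2.78 ± 0.30 on the log2 scale. In B16F10 tumors it measured 182 and 110.0 CPM after CPA/6d, against 50.4 and 39.2 CPM untreated. Here both treated pools lay above both untreated ones, at 146 ± 50.6 CPM and 44.8 ± 7.88 CPM (SD, n = 2 each), a log2 fold change of 1.62 ± 0.21. With all 12 B6 libraries in 1 fit the change was 1.64 ± 0.45 and was not called.

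In GL261(scid) tumors Hapln1 measured 1.03 and 0.715 CPM after CPA/9d, 0.629 and 1.04 CPM after CPA/6d and 2.18 and 2.80 CPM untreated. The 2 treated groups overlapped each other and lay below the untreated pools, with log2 fold changes of -1.45 ± 0.33 for CPA/9d, not called, and -1.55 ± 0.34 for CPA/6d, called. These calls sat at the threshold: without the CPA/6d pool of more reads the CPA/6d change was -1.23, without the pool of fewer reads it was -1.87, and neither was called, whereas without the untreated pool of more reads the CPA/9d change was -1.62 and called. LLC pools gave 1 and 0 reads of Hapln1 after CPA/6d and 1 and 2 reads untreated.

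Tnr, a tenascin of oligodendrocytes and some neurons that joins lecticans into a net, fell in glioma and rose in LLC. GL261(B6) tumors held 14.6 and 13.2 CPM after CPA/6d, against 45.8 and 35.9 CPM untreated. The pools did not overlap and Tnr fell by 1.54 ± 0.14 on the log2 scale, a change that was not called with all 12 B6 libraries in 1 fit, where its SE was 0.38. GL261(scid) tumors held 4.80 and 6.20 CPM after CPA/9d, 5.85 and 8.02 CPM after CPA/6d and 25.9 and 29.3 CPM untreated. The 2 schedules overlapped and both lay below the untreated pools, with log2 fold changes of -2.33 ± 0.15 for CPA/9d and -2.02 ± 0.15 for CPA/6d.

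In LLC tumors Tnr measured 16.9 and 15.7 CPM after CPA/6d, against 1.64 and 2.55 CPM untreated. Its log2 fold change of 2.94 ± 0.24 was the largest rise of any of the 7 genes in any comparison with untreated tumors, and it ranged over 2.62 to 3.25 when each pool was left out in turn. The treated LLC level of 16.3 CPM thereby stood just above the treated GL261(B6) level of 13.9 CPM, with no overlap between the pools. Tnr gave 0 and 1 reads in B16F10 tumors after CPA/6d and 0 reads in both untreated pools.

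Tnc, the tenascin of embryonic tissue, wounds and tumor stroma, was the member that rose in glioma. It measured 511 and 572 CPM in GL261(B6) tumors after CPA/6d, against 200.0 and 283 CPM untreated. The pools did not overlap, with a log2 fold change of 1.18 ± 0.12, which became 0.93 and was not called without the untreated pool of more reads. Levels of Tnc in GL261(scid) tumors were 1137 and 1005 CPM after CPA/9d, 1454 and 1345 CPM after CPA/6d and 502 and 591 CPM untreated. All 3 groups stood apart, CPA/6d highest, with log2 fold changes against untreated tumors of 0.96 ± 0.08 for CPA/9d, just under the fold threshold, and 1.34 ± 0.07 for CPA/6d. Without the CPA/9d pool of fewer reads or without the untreated pool of fewer reads the CPA/9d change was 1.02 or 1.05 and was called.

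In the other models Tnc was lower and was not called. LLC tumors held 37.0 and 23.2 CPM after CPA/6d, against 31.4 and 25.7 CPM untreated, which overlapped, with a log2 fold change of 0.05 ± 0.18. B16F10 tumors held 67.6 and 97.6 CPM after CPA/6d, against 48.0 and 39.5 CPM untreated. These did not overlap, and the log2 fold change was 0.85 ± 0.18. It reached 1.11 and was called without the CPA/6d pool of more reads.

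Ptprz1, the receptor phosphatase that is also the source of phosphacan, fell in treated glioma of both hosts. In GL261(B6) tumors it measured 119 and 102 CPM after CPA/6d, against 437 and 365 CPM untreated, and fell by 1.86 ± 0.09 on the log2 scale. Its levels in scid hosts were 39.9 and 38.6 CPM after CPA/9d, 44.8 and 51.7 CPM after CPA/6d and 180 and 189 CPM untreated. No 2 of these scid groups overlapped, and the log2 fold changes against untreated tumors were -2.24 ± 0.06 for CPA/9d and -1.96 ± 0.07 for CPA/6d. Ptprz1 was hardly detected outside glioma, with 0 and 0 reads in LLC after CPA/6d, 1 and 1 reads in untreated LLC, 3 and 2 reads in B16F10 after CPA/6d and 7 and 2 reads in untreated B16F10.

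Cspg5, the membrane proteoglycan neuroglycan C, had the smallest change of the members that fell in GL261(B6) tumors. It measured 25.8 and 25.5 CPM after CPA/6d, against 54.5 and 58.8 CPM untreated, and fell by 1.14 ± 0.10 on the log2 scale, which was not called with all 12 B6 libraries in 1 fit (SE 0.40). GL261(scid) tumors held 14.8 and 12.3 CPM after CPA/9d, 15.7 and 16.4 CPM after CPA/6d and 44.3 and 41.6 CPM untreated. The pools of the 3 groups did not overlap, with log2 fold changes of -1.68 ± 0.10 for CPA/9d and -1.44 ± 0.09 for CPA/6d. LLC tumors held 0.606 and 0.891 CPM after CPA/6d and 0.954 and 0.709 CPM untreated, which overlapped. B16F10 tumors held 2.40 and 2.71 CPM after CPA/6d, against 1.74 and 0.556 CPM untreated, a log2 fold change of 1.20 ± 0.53 that was not called and rests on untreated pools 3.13-fold apart.

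The order of levels among the B6 groups differed by gene. For Bcan, Ptprz1 and Cspg5 it ran from untreated GL261(B6) through CPA/6d GL261(B6) to B16F10 and then LLC tumors. For Bcan only the 2 LLC groups at the end of the order overlapped, for Ptprz1 only the 2 B16F10 groups, and for Cspg5 untreated B16F10 and both LLC groups. For Tnc treated GL261(B6) stood first, and only the 2 LLC groups overlapped. For Hapln1 both B16F10 groups stood above both GL261(B6) groups, and only the 2 LLC groups overlapped. For Tnr the treated LLC tumors took the second place, and only the 2 B16F10 groups overlapped.

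**Figure D2:**
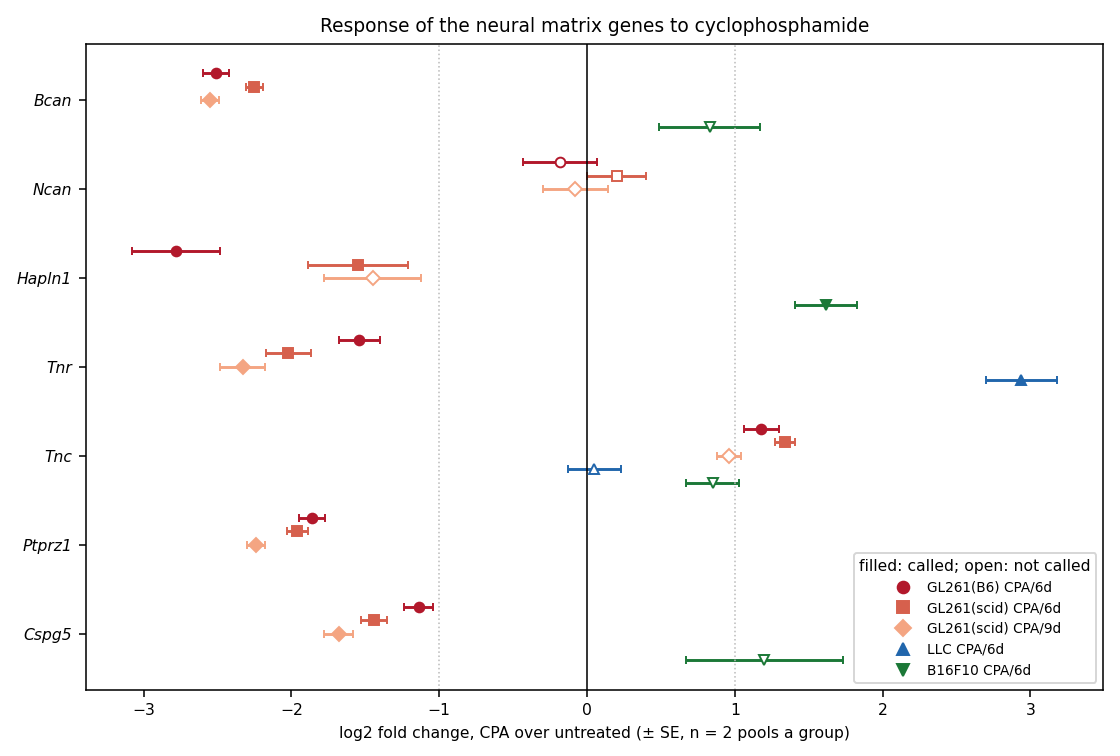
Log2 fold change of CPA over untreated tumors for each of the 7 genes (horizontal axis, bars ± SE, 2 pools a group), with filled symbols for called changes and open symbols for those not called. Circles are GL261(B6), squares and diamonds GL261(scid) on CPA/6d and CPA/9d, upward triangles LLC and downward triangles B16F10; genes that did not pass the filter on low reads have no symbol. Bcan, Hapln1, Tnr, Ptprz1 and Cspg5 lie left of 0 in all 3 GL261 comparisons, Tnr lies at 2.94 in LLC and Hapln1 at 1.62 in B16F10.

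Calls of the members were also counted in each model. In GL261(B6) tumors all 7 passed the filter, 5 were called lower and 1 higher. Over all 13701 genes tested 24.2% were called, 17.7% higher and 6.52% lower. The median log2 fold change of the members was -1.54, beside -0.03 over all genes. In GL261(scid) tumors CPA/6d also gave 5 lower and 1 higher, with a median of -1.55, where 27.8% of 14824 genes were called, 19.0% higher and 8.80% lower. CPA/9d in scid hosts gave 4 of 7 lower and left the other 3 without a call, with a median of -1.68, where 31.0% were called, 20.1% higher and 10.9% lower. The 2 scid schedules share their untreated pools. In LLC tumors 2 members passed the filter and 1, Tnr, was called higher, where 2.93% of 12579 genes were called, 2.02% higher and 0.914% lower. In B16F10 tumors 4 passed and 1, Hapln1, was called higher, where 9.19% of 12515 genes were called, 5.88% higher and 3.31% lower. Since the members were chosen with these responses known, nothing is read from the counts. In RNA of whole tumors, fewer cells of a type and less RNA per cell cannot be told apart.

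Within scid hosts the longer interval was set directly against the shorter one. None of the 7 members was called, where 0.758% of 14898 genes were called, 0.738% higher and 0.0201% lower in CPA/9d. The log2 differences of CPA/9d over CPA/6d were -0.29 ± 0.08 for Bcan, -0.28 ± 0.08 for Ptprz1, -0.24 ± 0.12 for Cspg5, -0.31 ± 0.21 for Tnr, -0.27 ± 0.22 for Ncan and 0.09 ± 0.45 for Hapln1. Tnc, the member that CPA raised, differed by -0.37 ± 0.08. The pools of the 2 schedules did not overlap for Bcan, Ncan, Tnc, Ptprz1 and Cspg5 and overlapped for Tnr and Hapln1. With 2 pools a group, pools can stand apart without a difference between groups, so nothing is read from this.

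Untreated GL261(B6) tumors expressed the set far above the other lines, Hapln1 in melanoma excepted. Against untreated LLC, 7 of 7 were called higher, where 31.3% of 13199 genes were called, 18.4% higher and 12.9% lower. Bcan, Ncan, Hapln1, Ptprz1 and Cspg5 passed the filter only through the untreated GL261(B6) pools, where they are high. Nothing is therefore read from this count. Untreated GL261(B6) held 2681 reads of Bcan against 0 in untreated LLC, which makes Bcan at least 1336-fold higher, with the floor of 3 reads taken over the group. Ptprz1 stood at 5871 against 2 reads, a ratio of 4388 with a 95% counting interval of 1214 to 36238, and Hapln1 at 228 against 3 reads, a ratio of 114 with an interval of 38.4 to 555. These intervals cover counting error only. The log2 differences were 5.92 ± 0.21 for Cspg5, 4.24 ± 0.25 for Tnr, 3.76 ± 0.43 for Ncan and 3.06 ± 0.16 for Tnc. With either untreated GL261(B6) pool left out, Bcan, Ncan, Hapln1, Ptprz1 and Cspg5 were not tested, as the filter needs 2 libraries. The log2 differences of Tnr and Tnc stayed at 3.91 to 4.48 and 2.81 to 3.31 when each pool was left out in turn.

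Against untreated B16F10, 6 members were called higher in untreated GL261(B6) and Hapln1 lower, where 36.7% of 13329 genes were called, 20.0% higher and 16.7% lower. Ncan, Tnr and Ptprz1 passed the filter only through the untreated GL261(B6) pools, so nothing is read from this count either. With libraries scaled by total reads the split over all genes was 3542 higher and 1454 lower, the median of all genes moved to 0.32, and Hapln1, at -1.29, was not called. Tnr had 599 reads in GL261(B6) and 0 in B16F10 and was at least 233-fold higher. The log2 differences were 9.37 ± 0.32 for Ptprz1, 6.37 ± 0.19 for Bcan, 5.61 ± 0.42 for Cspg5, 3.77 ± 0.47 for Ncan, 2.40 ± 0.16 for Tnc and -1.64 ± 0.26 for Hapln1. With either untreated GL261(B6) pool left out, Ncan, Tnr and Ptprz1 were not tested, as the filter needs 2 libraries. When each pool was left out in turn, the log2 differences were 6.11 to 6.63 for Bcan and 4.89 to 6.32 for Cspg5. They were 2.15 to 2.65 for Tnc and -2.05 to -1.22 for Hapln1.

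The responses of 2 models were also set against each other in 1 fit with an interaction term. Bcan and Tnr were called in GL261(B6) against LLC, with differences of response of -3.15 ± 0.53 and -4.47 ± 0.29 on the log2 scale, where 18.3% of 14073 genes were called, 12.6% higher and 5.73% lower. Bcan and Hapln1 were called in GL261(B6) against B16F10, at -3.31 ± 0.27 and -4.37 ± 0.45, where 10.9% of 14257 genes were called, 6.94% higher and 3.97% lower. The Bcan value against LLC rests on 2 reads in all LLC pools and so on the 1 read added before taking logs, and it lost its call without the treated GL261(B6) pool of fewer reads (-3.05) and with either one of the untreated GL261(B6) pools left out (-3.10 and -3.24). Tnr against B16F10 (-2.07 ± 0.57), Cspg5 against B16F10 (-2.31 ± 0.54) and Tnc against LLC (1.14 ± 0.29) were not called. Tnr gave 1 read in treated and 0 reads in untreated B16F10 tumors, so no response of Tnr was measured there. Between B6 and scid hosts the CPA/6d responses of GL261 differed by -1.29 ± 0.50 for Hapln1, 0.45 ± 0.23 for Tnr, -0.28 ± 0.11 for Bcan and 0.27 ± 0.12 for Cspg5. None of the 7 genes was called there, where 2.23% of 14962 genes were called, 1.14% higher and 1.09% lower.

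**Figure D3:**
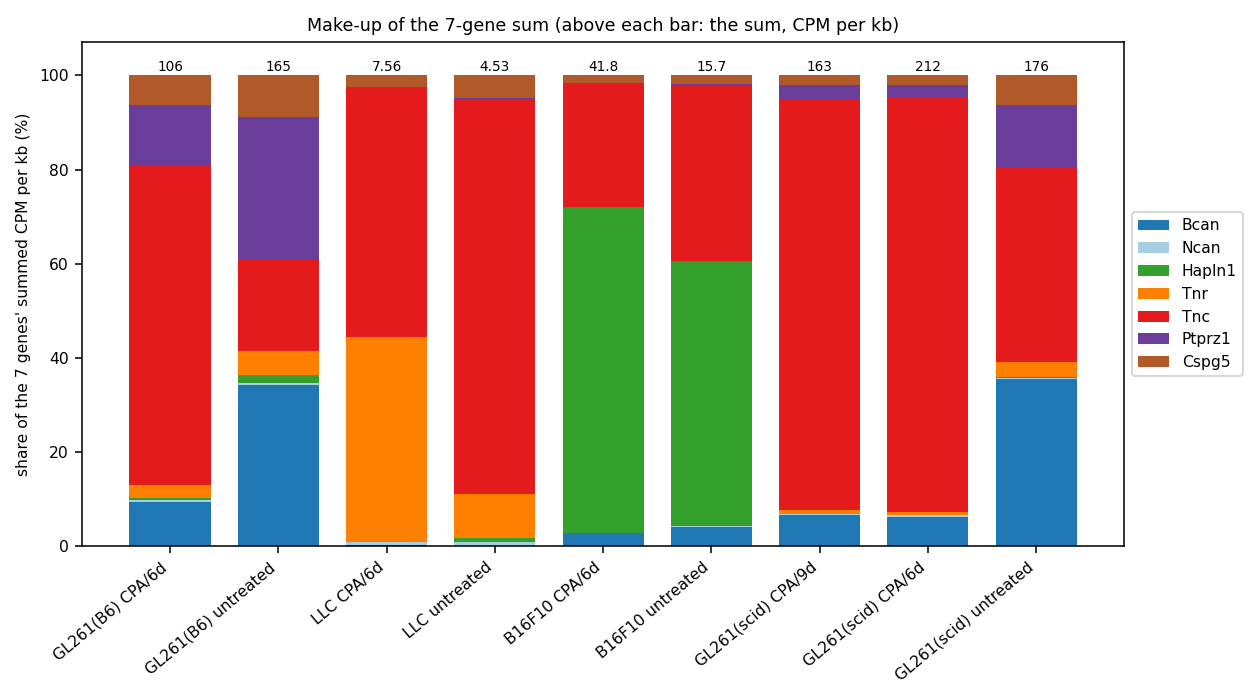
Make-up of the 7 genes' summed level in each group, as the share (%) each gene takes of the sum of CPM per kb of exon, with the sum above each bar. Means of 2 pools are shown, CPA-treated groups left of their untreated group. Tnc takes 67.9% in treated and 19.5% in untreated GL261(B6) tumors, and Hapln1 takes 69.1% and 56.4% in treated and untreated B16F10 tumors.

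Per length of exon, the sum of the set and its make-up both differed between treated and untreated glioma. The 7 genes summed to 106 CPM per kb in GL261(B6) tumors after CPA/6d, with pools at 104 and 108, against 165 CPM per kb untreated, with pools at 162 and 168. After CPA/6d Tnc made up 67.9% of that sum, Ptprz1 12.9%, Bcan 9.30% and Cspg5 6.25%. Untreated, Bcan made up 34.2%, Ptprz1 30.2%, Tnc 19.5%, Cspg5 8.89%, Tnr 5.01% and Hapln1 1.84%. Per kb, Bcan thus led in untreated tumors and Tnc after CPA/6d.

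The sum in GL261(scid) tumors was 163 CPM per kb after CPA/9d, 212 after CPA/6d and 176 untreated, and Tnc made up 87.3%, 88.0% and 41.4% of it. In LLC tumors the sum was 7.56 CPM per kb after CPA/6d and 4.53 untreated, with Tnr at 43.5% of it after CPA/6d and 9.35% untreated. In B16F10 tumors it was 41.8 CPM per kb after CPA/6d and 15.7 untreated, with Hapln1 at 69.1% and 56.4%. Among the B6 groups Bcan led in both untreated GL261 pools, Tnc in both treated GL261 pools and Hapln1 in all B16F10 pools. Tnc led in LLC tumors except in the treated pool of fewer reads, where Tnr stood at 3.16 and Tnc at 3.09 CPM per kb.

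Across the 12 pools of B6 tumors, log2(CPM + 1) of Ptprz1 and Cspg5 had a Pearson r of 0.99, Bcan and Cspg5 of 0.98, Ncan and Ptprz1 of 0.98 and Bcan and Ptprz1 of 0.96. Hapln1 stood apart, at 0.01 with Ptprz1 and -0.53 with Tnr. These values are descriptions over pools that fall into 3 tumor lines, and they mostly carry the difference between lines. By the same measure over 14582 genes, the genes most like Bcan included Bcas1, a gene of the oligodendrocyte lineage, and the collagen gene Col11a1, at 0.995 each. Most like Ptprz1 were the transporter gene Slc47a1, Odz3 and Atcay, at 0.999 each, and most like Cspg5 were Sema3d and Wscd1, at 0.996, and the cartilage collagen gene Col9a2, at 0.995.

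Ncan was most like Rorb (0.989), Slitrk6 and Mtmr7 (0.988 each). Tnc was most like the antigen presentation genes H2-Eb1 (0.987), H2-DMb1 and Cd74 (0.985 each). H2-Eb1 measured 2022 and 2146 CPM in GL261(B6) after CPA/6d, against 356 and 324 CPM untreated. Tnr, which is high in treated LLC as well as in glioma, was most like Hif3a (0.974), Slc26a10 (0.964) and Pld6 (0.959). Hif3a, a gene of the hypoxia-inducible factor family, measured 6.67 and 8.40 CPM in LLC after CPA/6d, against 0.954 and 0.993 CPM untreated. In GL261(B6) it measured 8.64 and 9.12 CPM after CPA/6d, against 10.9 and 9.30 CPM untreated, so its glioma values do not follow those of Tnr. Hapln1 was most like Gfpt1 (0.994), Fbxo8 (0.992) and Ndufb9 (0.989).

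**Figure D4:**
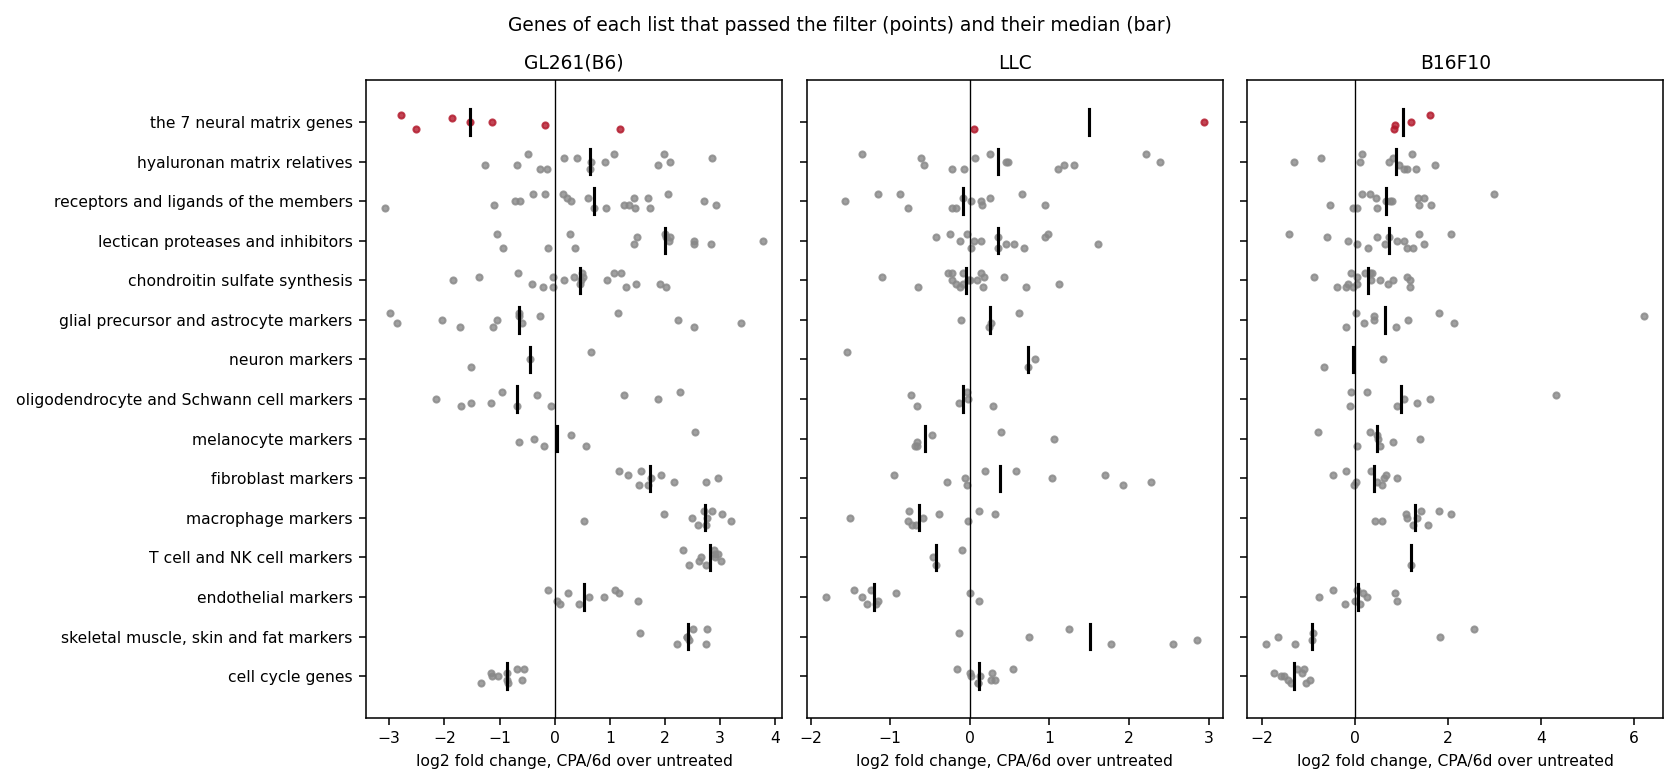
Log2 fold change of CPA/6d over untreated tumors (horizontal axis) for the genes of each list that passed the filter on low reads, in GL261(B6), LLC and B16F10 tumors; points are genes, bars are list medians and the 7 matrix genes are red. In GL261(B6) the median of the 7 genes is -1.54, beside -0.65 for glial markers, 2.72 for macrophage markers and 1.72 for fibroblast markers.

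Other genes of the same matrix were read from lists of textbook partners. P-values for these genes come from limma with Benjamini-Hochberg adjustment over all genes tested, and they measure only the spread between pools of tumors. The list counts stand beside the shares over all genes tested. After CPA/6d 17.7% were called higher and 6.52% lower in GL261(B6) and 19.0% and 8.80% in GL261(scid). The shares were 2.02% and 0.914% in LLC and 5.88% and 3.31% in B16F10 tumors. These shares are for calls only. No share over all genes was taken at an unadjusted p under 0.05, so nothing is read from list counts at that cutoff. Among relatives of the hyaluronan matrix, 15 of 18 passed the filter in GL261(B6) tumors, 5 rose and 1 fell after CPA/6d, with a median of 0.64. The small leucine-rich proteoglycan Dcn averaged 365 CPM after CPA/6d, against 50.4 CPM untreated, a log2 fold change of 2.85 ± 0.08 (adjusted p = 3.3e-11). Its relative Bgn rose by 2.09 ± 0.07 (adjusted p = 1.2e-10), and the tenascin genes Tnn and Tnxb rose by 1.98 ± 0.28 and 1.87 ± 0.13 (adjusted p = 3.7e-05 and 8.5e-08). Both of these tenascins were thus higher after CPA/6d in GL261(B6) tumors, as Tnc was, and Tnr was lower. In GL261(scid) tumors the CPA/6d pools overlapped the untreated ones for Tnn, whose log2 fold change of -0.44 was not called.

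In LLC tumors 4 of 14 tested relatives rose and 0 fell by limma (7 higher and 3 lower at an unadjusted p under 0.05), with a median of 0.35, and 2 of them were tenascins. Tnxb averaged 77.5 CPM after CPA/6d, against 16.7 CPM untreated, a log2 fold change of 2.22 ± 0.10 (adjusted p = 2.2e-06). Tnn measured 2.20 and 2.16 CPM after CPA/6d, against 0.273 and 0.426 CPM untreated. It changed by 2.39 ± 0.44 (adjusted p = 0.0033), a value that rests on untreated pools near the floor of reads. The lectican Vcan, a hyaluronan partner in connective tissue, averaged 551 CPM after CPA/6d, against 244 CPM untreated (log2 fold change 1.18 ± 0.07, adjusted p = 4.7e-06). In B16F10 tumors 2 of 12 tested relatives rose and 1, the hyaluronan receptor gene Hmmr, fell, with a median of 0.88. In GL261(scid) tumors 5 rose and 1 fell of 17 after CPA/6d, with Dcn at 3.40 ± 0.07 (adjusted p = 3.3e-12).

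Receptors and ligands of the 7 genes moved both ways. In GL261(B6) tumors 21 of 26 passed the filter, 7 rose and 2 fell, with a median of 0.71. Contactin 1 (Cntn1), a neural adhesion molecule that binds Ptprz1 and Tnr, averaged 26.0 CPM after CPA/6d, against 223 CPM untreated, and fell by 3.07 ± 0.14 on the log2 scale (adjusted p = 1.1e-09). Midkine (Mdk), a ligand of Ptprz1, rose by 2.71 ± 0.38 (adjusted p = 4.4e-05), while Ptprz1 itself was lower. In GL261(scid) tumors after CPA/6d Mdk rose by 3.45 ± 0.16 (adjusted p = 9e-10), the other Ptprz1 ligand gene, Ptn (pleiotrophin), by 2.93 ± 0.25 (adjusted p = 2.5e-07), and Cntn1 fell by 2.36 ± 0.07 (adjusted p = 2.9e-11). In LLC 0 of 13 rose and 2 fell by limma, and 3 higher and 5 lower had an unadjusted p under 0.05, with a median of -0.08. In B16F10 3 of 15 rose and 0 fell by limma, and 10 higher and 1 lower had an unadjusted p under 0.05, with a median of 0.67. The adhesion gene L1cam was among both, at -1.57 ± 0.10 in LLC (adjusted p = 1.2e-05) and 2.99 ± 0.21 in B16F10 (adjusted p = 3.4e-05).

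Proteases that cut lecticans, with their inhibitors, had the highest median of the matrix lists in GL261(B6) tumors, at 2.00, with 10 of 15 tested members higher and 1 lower. Adamts15, an aggrecanase-type protease, averaged 49.9 CPM after CPA/6d, against 3.54 CPM untreated, a log2 fold change of 3.78 ± 0.16 (adjusted p = 7.4e-10). Stromelysin 1 (Mmp3) rose by 2.84 ± 0.20 (adjusted p = 6.1e-08), urokinase (Plau) by 2.53 ± 0.08 (adjusted p = 7.6e-11) and the inhibitor Timp2 by 2.52 ± 0.07 (adjusted p = 2.7e-11). In GL261(scid) tumors after CPA/6d 9 of 15 rose and 1 fell, with Adamts15 at 4.40 ± 0.13 (adjusted p = 2.2e-11). In LLC 1 of 15, Mmp3, rose and 0 fell by limma (7 higher and 1 lower at an unadjusted p under 0.05), with a median of 0.36, and in B16F10 5 of 15 rose and 1 fell, with a median of 0.73.

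Enzymes of chondroitin sulfate synthesis, which make the side chains of Bcan, Ncan, Ptprz1 and Cspg5, split in GL261(B6) tumors into 5 higher and 2 lower of 20 tested, with a median of 0.46. The lower ones included Ugdh, which makes the glucuronic acid donor for chondroitin sulfate and hyaluronan. Ugdh averaged 161 CPM after CPA/6d, against 576 CPM untreated, and fell by 1.84 ± 0.08 (adjusted p = 1.4e-09). It fell by 1.90 ± 0.05 in GL261(scid) tumors after CPA/6d (adjusted p = 9.8e-12). The epimerase Dse rose by 2.02 ± 0.09 in GL261(B6) tumors (adjusted p = 1.1e-09). In LLC 1 of 18 rose and 0 fell by limma (5 higher and 3 lower at an unadjusted p under 0.05), with a median of -0.05. In B16F10 2 of 18 rose and 0 fell by limma (7 higher and 1 lower at an unadjusted p under 0.05), with a median of 0.28.

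Markers of cell types moved with these changes, and their part in them was not tested. In GL261(B6) tumors the summed CPM of 16 glial markers was 1289 to 1419 after CPA/6d, against 2927 to 3068 untreated, with 6 lower and 3 higher of 14 tested. Gpr17, a receptor of oligodendrocyte precursors, averaged 50.5 CPM after CPA/6d, against 364 CPM untreated, and fell by 2.85 ± 0.08 (adjusted p = 2.8e-11), beside 2.51 for Bcan. Among the 3 higher, Sox9 averaged 4.58 CPM after CPA/6d, against 0.393 CPM untreated, and rose by 3.38 ± 0.5 (adjusted p = 6.5e-05). Aldh1l1 averaged 14.2 CPM after CPA/6d, against 2.32 CPM untreated, and rose by 2.52 ± 0.26 (adjusted p = 2.1e-06). The sum of 12 oligodendrocyte and Schwann cell markers was 971 to 1055 CPM after CPA/6d, against 1995 to 2071 CPM untreated. Fibroblast markers summed to 13888 to 14367 CPM after CPA/6d, against 4116 to 4711 CPM untreated, with 10 of 10 higher, beside the rise of Tnc. Macrophage markers summed to 5607 to 6473 CPM after CPA/6d, against 820 to 927 CPM untreated, with 9 of 10 higher.

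In scid hosts marker sums were also set beside the members. Glial markers summed to 1271 to 1339 CPM after CPA/9d, 1499 to 1557 CPM after CPA/6d and 3181 to 3435 CPM untreated. Fibroblast markers summed to 45394 to 51366 CPM after CPA/9d, 38459 to 46784 CPM after CPA/6d and 9481 to 11121 CPM untreated. Markers of skeletal muscle, skin and fat around the tumor summed to 2505 to 2550 CPM after CPA/9d, 1263 to 1349 CPM after CPA/6d and 82.5 to 145 CPM untreated.

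Beside the rise of Tnr in LLC, no glial, oligodendrocyte or Schwann cell marker was called by limma. The 16 glial markers summed to 575 to 615 CPM after CPA/6d, against 557 to 563 CPM untreated, with 0 of 4 tested called (2 higher at an unadjusted p under 0.05) and Olig2 at 0 reads after CPA/6d. The 12 oligodendrocyte and Schwann cell markers summed to 120 to 129 CPM after CPA/6d, against 138 to 149 CPM untreated, with 0 of 6 tested called (2 lower at an unadjusted p under 0.05) and Mobp, Mog and Ngfr at 0 reads after CPA/6d. Fibroblast markers summed to 3139 to 3382 CPM after CPA/6d, against 2095 to 2208 CPM untreated, with 4 of 10 higher, among them Dpt at 2.28 ± 0.13 (adjusted p = 4.6e-06). Macrophage markers summed to 1025 to 1117 CPM after CPA/6d, against 1402 to 1730 CPM untreated, with 1 of 10 called lower, and 7 of 10 endothelial markers fell.

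Beside the rise of Hapln1 in B16F10, oligodendrocyte and Schwann cell markers summed to 766 to 827 CPM after CPA/6d, against 400 to 402 CPM untreated, with 4 of 8 tested higher. The glial filament gene Gfap averaged 53.9 CPM after CPA/6d, against 11.8 CPM untreated, a log2 fold change of 2.13 ± 0.14 (adjusted p = 3.1e-05). Gpr17 gave 366 reads (22.7 CPM) after CPA/6d, against 3 reads (0.172 CPM) untreated. Macrophage markers summed to 565 to 671 CPM after CPA/6d, against 216 to 276 CPM untreated, with 8 of 10 higher. Melanocyte markers summed to 39842 to 44833 CPM after CPA/6d, against 27283 to 29395 CPM untreated, with 1 of 8, Gpnmb, called higher, and 9 of 10 cell cycle genes fell. Markers of skeletal muscle, skin and fat set the treated pools apart, at 55.8 and 1114 CPM after CPA/6d, against 322 to 406 CPM untreated. Without the treated pool at 1114 CPM the log2 fold change of Hapln1 was 1.98 and without the other treated pool 1.25, and it was called in both fits. The part of these shifts in the level of Hapln1 was not tested.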

How the data were processed

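Poly-A RNA of 18 tumor pools was sequenced. Per the labels, reads were mapped to mm9 with TopHat2 2.0.13. Reads over RefSeq genes were normalized and compared by the authors with DESeq. The authors deposited 10 tables, each with 2 group means of size-factor-normalized reads per gene (unit: signal) and with their own fold changes, ratios and p-values, which were not used. Since a mean of 2 pools is a sum of whole reads over size factors, the reads of single pools were recovered (100% of values above 0, size factors recomputed within a relative difference of 1.62e-11). Pools could then be told apart only by depth. Titles inside the LLC and B16F10 tables state another CPA dose than the labels, whose 140 mg/kg is given here.

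Libraries were scaled by TMM (trim 0.3 of log ratios and 0.05 of mean levels). Genes with 10 reads at the median depth in 2 libraries and 15 reads in all were tested with limma 3.58.1 (R 4.3.3, eBayes with trend) on log2(scaled reads + 1), with the groups of each comparison alone in the fit. A call needed a fold over 2 and an unadjusted p under 0.001, after the study's own cutoffs, and adjusted p-values are Benjamini-Hochberg over all genes tested. Fold changes on this scale understate those of low genes. Named genes are the 7 members, and from each list up to 4 called genes of largest change. Some genes that this rule names are not reported here. Members and lists were chosen with earlier results of these data known. Nothing in the labels says that the pools of a group are separate experiments beyond their different tumors. Scripts were tested on simulated data. Alternatives were median-of-ratios and total-read scaling, 10 added before logs, no filter, adjusted p-value cutoffs of 0.05 and 0.001, wider fits and leaving out each pool. Symbols were those of the files (Mtap2 for Map2). Intervals and floors cover counting error only.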

Additional observations from a re-analysis of the deposited data

Results flagged for a closer look

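The responses of 3 members to CPA/6d differed between tumor models in a fit with an interaction term, and are given here for that reason. The difference GL261(B6) minus LLC was -3.15 ± 0.53 (SE, log2) for Bcan and -4.47 ± 0.29 for Tnr. The difference GL261(B6) minus B16F10 was -3.31 ± 0.27 for Bcan and -4.37 ± 0.45 for Hapln1. Since these genes were chosen with their responses known, the values are descriptions. Tnr and Hapln1 were called in opposite directions in the models compared. Bcan had 2 reads over the 4 LLC pools, so no response of Bcan was measured in LLC. Its value against LLC rests on the GL261(B6) pools and shows no difference between 2 measured responses.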

How the results depend on the processing

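No paired analysis was possible because the files carry group means, and the recovered pools have no pool number. Of 132 alternative counts of members called, 118 stayed within 1.5 times the main count and 14 did not. Of the member fold changes under an alternative, 0 reversed a call, 15 lost it and 23 gained it. For B16F10 the main count of 1 became 0 with all 12 B6 libraries in 1 fit, and 1 to 2 when pools were left out in turn. For untreated GL261(B6) against untreated LLC it was 2 to 7 and against untreated B16F10 4 to 7 when pools were left out. For the difference of responses GL261(B6) minus LLC the main count of 2 became 6 with 10 added in place of 1, 4 at an adjusted p under 0.05, and 1 to 3 when pools were left out. For GL261(B6) minus B16F10 the main count of 2 became 5 with 10 added, 5 at an adjusted p under 0.05, and 2 to 4 when pools were left out. With 10 added, the calls against LLC included Bcan, Hapln1, Ptprz1 and Cspg5, and those against B16F10 included Tnr and Ptprz1. None of these passed the filter in that other model alone, so their calls show no difference between 2 measured responses. The cause of the other moves was not tested.

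Calls of Hapln1 in scid hosts after CPA/6d were also lost with median-of-ratios scaling (-1.55), with total reads (-1.48), at an adjusted p under 0.001 and with all 6 scid libraries in 1 fit (-1.56), and its CPA/9d change was called at an adjusted p under 0.05. Tnc after CPA/9d was called with total reads (1.02). Counts over all genes moved by over 1.5 times in LLC, where 369 became 614 at an adjusted p under 0.05 and 172 under 0.001. In CPA/9d against CPA/6d 113 became 46 under 0.001, 30 in the wider fit and 170 higher with 26 lower without the CPA/9d pool of more reads. In the difference of responses GL261(B6) minus B16F10 1556 became 2642 under 0.05 and 1031 under 0.001, and in that between hosts 334 became 541 and 143. Levels above 1 CPM were 0.972 to 1.02 times the values given with median-of-ratios scaling and 0.850 to 1.08 times with total reads. Both scalings were planned for the comparisons and were applied to the levels after seeing the data. The depth limits what can be said of Bcan, Ncan, Hapln1, Ptprz1 and Cspg5 in LLC and of Ncan, Tnr and Ptprz1 in B16F10, which did not pass the filter there.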

Other observations

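Other genes of the matrix differed both ways between untreated tumors. Of the hyaluronan matrix relatives, 7 of 14 tested were called higher and 3 lower in untreated GL261(B6) than in untreated LLC tumors, and 6 of 15 higher and 1 lower than in untreated B16F10 tumors. Of the enzymes of chondroitin sulfate synthesis, 5 of 19 were called higher and 5 lower against LLC, with a median log2 difference of -0.77, and 7 of 19 higher and 3 lower against B16F10, with a median of 0.21. Over all genes tested 18.4% were called higher and 12.9% lower against LLC, and 20.0% and 16.7% against B16F10. Has2, a hyaluronan synthase, averaged 122 CPM in untreated GL261(B6) tumors, against 1.26 CPM in untreated LLC and 0.842 CPM in untreated B16F10 tumors. The log2 difference from LLC was 6.62 ± 0.37 (SE; limma, adjusted p = 3.1e-06), and the adjusted p against B16F10 was 7e-07. Cspg4, the proteoglycan NG2 of oligodendrocyte precursors, averaged 265 CPM in untreated GL261(B6), 3.92 CPM in untreated LLC and 14.0 CPM in untreated B16F10 tumors (adjusted p = 2.3e-08 against LLC and 8e-08 against B16F10). Chst3, which adds sulfate to chondroitin chains, averaged 137 CPM in untreated GL261(B6), 0.701 CPM in untreated LLC and 0.414 CPM in untreated B16F10 tumors (adjusted p = 9.6e-07 against LLC and 9.2e-08 against B16F10).

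Other genes were lower in untreated glioma. Lyve1, a hyaluronan receptor of lymphatic vessels, averaged 9.18 CPM in untreated GL261(B6) tumors, against 102 CPM in untreated LLC tumors, a log2 difference of -3.44 ± 0.16 (limma, adjusted p = 1.4e-06). The chondroitin enzyme gene Csgalnact1 averaged 9.71 CPM in untreated GL261(B6) tumors, against 64.7 CPM in untreated LLC tumors, a log2 difference of -2.72 ± 0.10 (adjusted p = 4.3e-07). The chondroitin synthase gene Chsy3 averaged 2.63 CPM in untreated GL261(B6) tumors, against 307 CPM in untreated B16F10 tumors, a log2 difference of -6.85 ± 0.13 (limma, adjusted p = 4.2e-08). The adhesion gene Nrcam averaged 19.7 CPM in untreated GL261(B6) and 394 CPM in untreated B16F10 tumors, a log2 difference of -4.36 ± 0.09 (adjusted p = 6.3e-08). Hapln1 was lower in untreated GL261(B6) than in untreated B16F10 tumors as well, except that this call was lost with total-read scaling and with all 12 B6 libraries in 1 fit.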
